A study of Mus musculus domesticus with 12 samples.

Results

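The 8 genes described here encode the main skeleton proteins, anchors and integral proteins of the red cell membrane: Sptb, Epb41, Ank1, Epb42, Slc4a1, Rhag, Kel and Aqp1. They were chosen by name, and all 8 were found among the 55385 genes listed for each library. RNA was measured in 3 groups of 4 libraries, in sorted erythroid cells of C57BL/6J mouse fetal liver at E14.5 of gestation. All cells had been depleted of mature lineages, infected with a retrovirus, cultured for 2 days in medium that expands erythroid cells, and sorted for GFP and for CD71int or CD71int/+ staining without Ter119. The retrovirus carried a short hairpin RNA (shRNA) against firefly luciferase as the control (shLuc), against Dis3 (shDis3) or against Exosc10 (shExosc10). Dis3 and Exosc10 are the ribonuclease subunits of the RNA exosome, which trims and degrades RNA. The labels name no hairpin number per target and do not say whether replicates came from separate embryos or cultures, so the p-values reflect no more than the scatter of these libraries, which may be technical.

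The red cell membrane is held up by a spectrin network, of which erythroid beta spectrin (Sptb) is a part, that is joined to short actin filaments with the help of protein 4.1 (Epb41). Ankyrin (Ank1) ties beta spectrin to the anion exchanger band 3 (Slc4a1), and protein 4.2 (Epb42) strengthens that tie. The Rh-associated glycoprotein (Rhag) sits in the same membrane complex, Kel is a blood group metallopeptidase linked to the protein Xk, and Aqp1 is the water channel of the red cell. Proerythroblasts stand at the start of the maturation in which these proteins accumulate, and band 3 is known to be added late. Inherited loss of ankyrin, spectrin, band 3 or protein 4.2 gives hereditary spherocytosis.

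The libraries held 14936178 to 32397192 counts. Dis3 measured 24.7 to 52.4 CPM (counts scaled to a common library size) in the shDis3 libraries and 113.4 to 196.2 in the other 8. Exosc10 measured 18.9 to 30.8 CPM in shExosc10 and 80.1 to 141.1 in the others. All 10 erythroid markers passed the filter on low counts, and Tfrc, which encodes the sorting marker CD71, lay between 351.4 and 1413 CPM. Of 6 hepatocyte markers 2 passed, with a summed level of 3.99 to 27.5 CPM, most of it from Apoa1 (3.42 to 27.4 CPM; Alb at most 4.41). All 8 granulocyte markers passed, with a summed level of 1049 to 4803 CPM. Some libraries resembled one of another group. Across genes, which are not independent replicates, log2 CPM of shDis3 replicate 3 correlated with shLuc replicate 4 at r = 0.986, and shDis3 replicate 4 with shExosc10 replicate 1 at r = 0.981, each more closely than with any library of its own group. In all, 8 of 12 libraries had their nearest profile in another group, among them shDis3 replicate 2, with r = 0.963 to shLuc replicate 2 and at most 0.930 within its group.

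Every member passed the filter, and none differed between groups at an adjusted p under 0.05. In shDis3 against shLuc, 0 of 8 members were called by edgeR's quasi-likelihood test, where 0% of the 17650 genes tested were called, and every member had an adjusted p of 0.99985. In shExosc10 against shLuc 0 of 8 were called, against 0.00567% of all genes, with every adjusted p at 0.999995, and in shDis3 against shExosc10 0 of 8, against 0.0113%. At an unadjusted p under 0.05 the members counted 0, 1 and 2 in the same order, where the share of all genes was 4.07%, 2.1% and 5.98%. DESeq2 also called 0 members in each comparison, against 0.257%, 0.108% and 0.668% of the genes to which it gave an adjusted p. No member separated any pair of groups without overlap. Of all genes 1.7% did so in shDis3 against shLuc (0.907% higher and 0.793% lower), 2.48% in shExosc10 against shLuc (1.02% higher and 1.46% lower) and 3.71% in shDis3 against shExosc10 (1.91% higher and 1.8% lower). In shDis3 against shLuc 7 of 8 members were negative, and their median log2 fold change of -0.30 stood beside 0.02 for all genes. The median was 0.09 in shExosc10 against shLuc (5 of 8 positive; all genes 0.02) and -0.44 in shDis3 against shExosc10 (6 of 8 negative; all genes 0.01). Among all genes 52.6%, 52.2% and 51.2% were positive in the 3 comparisons, in the order given. These comparisons share libraries. The members' signs are not independent either, since r between members over the 12 libraries had a median of 0.705 and exceeded 0.5 in 22 of 28 pairs. With the cluster of like libraries as a term, all 8 members had a positive log2 fold change in shDis3 against shLuc. Their median was 0.15, beside 0.05 for all genes (members' adjusted p at least 0.996). In shDis3 against shExosc10 6 of 8 were positive, with a median of 0.18 beside 0.09 for all genes (members' adjusted p at least 0.690). The clusters were drawn from these same data and overlap with group. In 1 of them shDis3 replicates 1, 3 and 4 stood beside shLuc replicate 4 and shExosc10 replicate 1 alone. In another, shDis3 replicate 2 was the only shDis3 library. In sorted bulk cells, fewer cells of a type and less RNA per cell cannot be told apart.

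**Figure D1:**
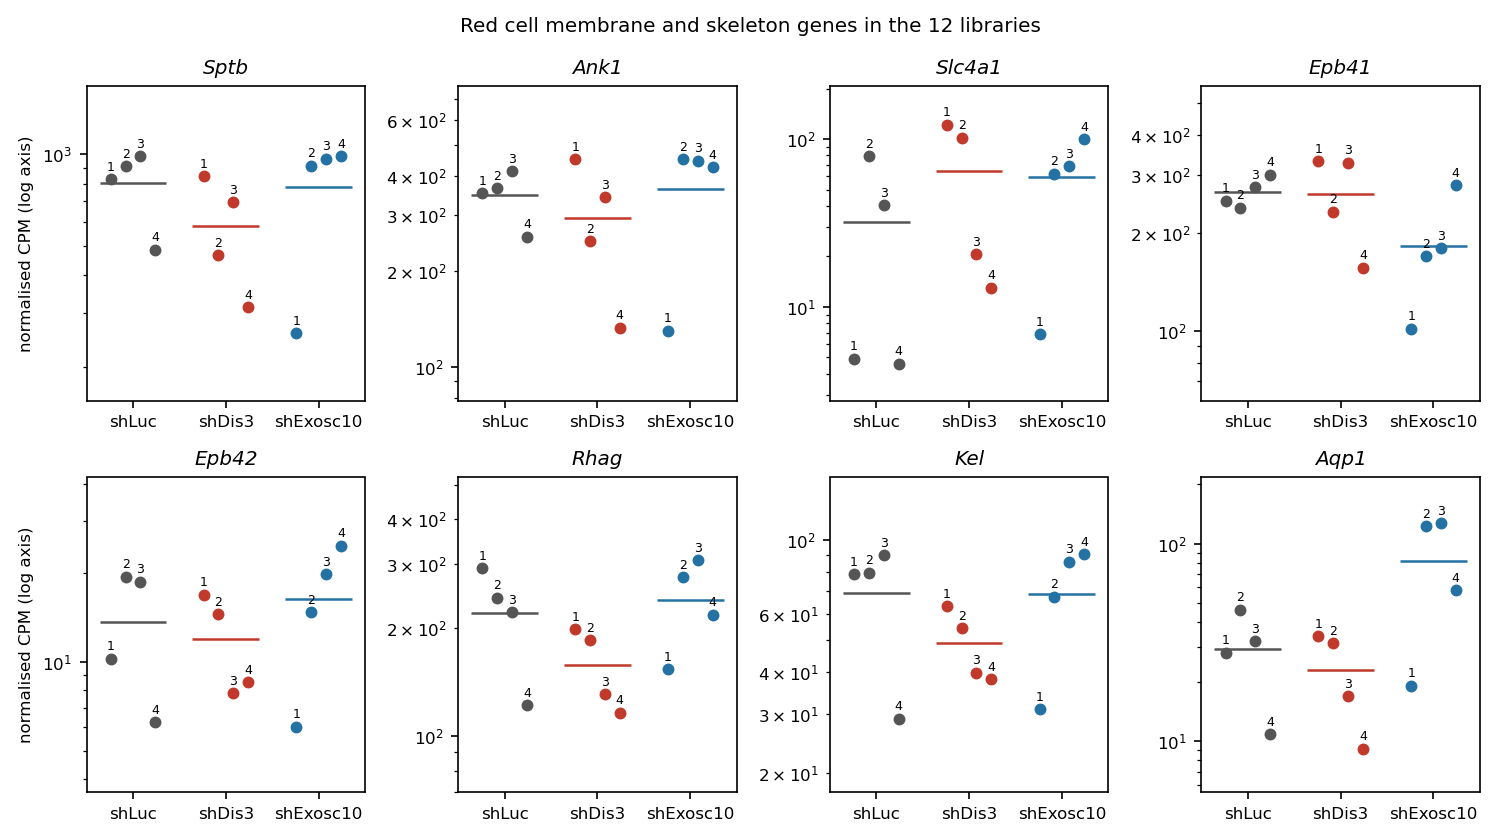
Normalised CPM (log axis) of each of the 8 genes, with 1 point per library labelled by its replicate number and a bar at the group mean. Every gene's groups overlap, and shDis3 replicate 4 and shExosc10 replicate 1 lie low in most panels.

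Beta spectrin, Sptb (ENSMUSG00000021061.15, GRCm38 chromosome 12, 76580488 to 76710547, minus strand), gave the most reads of the 8. It measured 828.9, 914.6, 983.1 and 485.2 CPM in replicates 1 to 4 of shLuc, 847.7, 465.1, 693.7 and 314.6 in those of shDis3, and 257.5, 917.2, 967.6 and 985.6 in those of shExosc10. Within shExosc10, 3 libraries lay close together and replicate 1 stood far below them, while the shDis3 libraries were spread from 314.6 to 847.7 CPM, with no such cluster. The log2 fold change was -0.47 in shDis3 against shLuc (SE 0.39, 95% interval -1.30 to 0.36) and -0.04 in shExosc10 against shLuc (SE 0.39, -0.87 to 0.79). The intervals thus take in a sizeable fall as well as a rise of Sptb in either knockdown.

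Protein 4.1, Epb41 (ENSMUSG00000028906.17, chromosome 4, 131923413 to 132075321, minus strand), had its lowest values in the same 2 libraries as beta spectrin, shExosc10 replicate 1 and shDis3 replicate 4, but differed from it in some others. Its levels were 250.8, 238.7, 275.8 and 301.8 CPM in the shLuc libraries, 331.9, 232.4, 328.5 and 156.4 in the shDis3 ones, and 101.7, 169.4, 179.8 and 279.8 in the shExosc10 ones. In shLuc replicate 4, where Sptb was lowest of its group, Epb41 was highest of its group, and the 3 shExosc10 libraries with high Sptb included 2 with low Epb41. Epb41 had a log2 fold change of -0.55 in shExosc10 against shLuc (SE 0.29, -1.16 to 0.07) and of -0.02 in shDis3 against shLuc (SE 0.29). The last value turned to 0.27 with limma on log2(TPM + 1). TPM is a level per transcript length scaled to a fixed total in each library.

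Ankyrin, Ank1 (ENSMUSG00000031543.18, chromosome 8, 22974844 to 23150497, plus strand), gave 353.3, 365.4, 412.9 and 257.5 CPM in the shLuc libraries, 451.6, 249.2, 343.1 and 132.7 in the shDis3 ones, and 130.1, 451.4, 446.9 and 425.0 in the shExosc10 ones. The libraries fell in nearly the order seen for Sptb, with shDis3 replicate 4 and shExosc10 replicate 1 lowest in both. For Ank1 the log2 fold change was -0.24 (SE 0.38, -1.05 to 0.57) for shDis3 over shLuc and 0.07 in shExosc10 against shLuc (SE 0.38). The span of the gene also holds the microRNA gene Mir486, annotated at 128 bases and listed at 0 in every library. The microRNA genes Mir3107 and Gm44365 in the same span were also at 0. Whether these libraries capture so short an RNA was not tested, so the 0 does not show that Mir486 is silent. A pseudogene, Gm15815, lies in the span on the same strand (mean 3.65 TPM). Whether its exons overlap those of Ank1, so that reads could be split between them, was not checked.

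Protein 4.2, Epb42 (ENSMUSG00000023216.13, chromosome 2, 121017891 to 121037072, minus strand), had the lowest mean TPM of the members and rested on 159 to 593 reads per library. Its values were 10.2, 19.4, 18.7 and 6.23 CPM in the shLuc libraries, 16.9, 14.52, 7.84 and 8.51 in the shDis3 ones, and 6.02, 14.7, 19.8 and 24.7 in the shExosc10 ones. The low libraries were shLuc replicate 4, shDis3 replicates 3 and 4 and shExosc10 replicate 1, 1 or 2 from each group. The log2 fold change was -0.19 in shDis3 against shLuc (SE 0.43) and 0.26 in shExosc10 against shLuc (SE 0.43).

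Band 3, Slc4a1 (ENSMUSG00000006574.15, chromosome 11, 102348824 to 102366203, minus strand), varied most of all members. It measured 4.91, 79.1, 40.5 and 4.59 CPM in the shLuc libraries, 122.0, 102.1, 20.6 and 13.0 in the shDis3 ones, and 6.86, 62.2, 69.3 and 99.9 in the shExosc10 ones. Each group thus held both high and low libraries, with reads from 93 in shLuc replicate 1 to 3244 in shDis3 replicate 1. Its log2 fold change was 0.99 in shDis3 against shLuc (SE 0.93, -0.99 to 2.97) and 0.88 in shExosc10 against shLuc (SE 0.92, -1.10 to 2.86). Without shLuc replicate 2 these became 1.93 and 1.83, and without shDis3 replicate 1 the former was 0.46. With the cluster of like libraries as a term, shDis3 over shLuc was 2.53 (SE 0.86, adjusted p = 0.996) and shDis3 over shExosc10 2.07 (SE 0.82, adjusted p = 0.690), against 0.11 (SE 0.92) for the latter with no such term. The standard deviation of its log2 CPM over the 12 libraries was 1.78, larger than that of 96.1% of all genes tested. For the 8 members the median of this measure was 0.66, beside 0.53 for all genes.

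Rhag (ENSMUSG00000023926.8, chromosome 17, 40811126 to 40840754, plus strand) varied least of the members in TPM, with values of 292.1, 242.3, 221.3 and 121.8 CPM in the shLuc libraries, 197.6, 184.2, 130.9 and 116.0 in the shDis3 ones, and 153.3, 276.5, 307.8 and 217.4 in the shExosc10 ones. All 4 shDis3 libraries lay below 3 of the 4 shLuc libraries, and the remaining one, shLuc replicate 4, lay among them. The log2 fold change was -0.48 in shDis3 against shLuc (SE 0.28, -1.08 to 0.12) and -0.60 in shDis3 against shExosc10 (SE 0.28, unadjusted p = 0.0499, adjusted p = 0.824). With the cluster of like libraries as a term, the former was 0.03 (SE 0.24). In shExosc10 against shLuc it was 0.12 (SE 0.28).

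Kel (ENSMUSG00000029866.13, chromosome 6, 41686330 to 41704339, minus strand) measured 78.9, 79.7, 89.9 and 29.1 CPM in the shLuc libraries, 63.3, 54.2, 39.9 and 38.2 in the shDis3 ones, and 31.1, 67.5, 86.0 and 90.5 in the shExosc10 ones. Every shDis3 library lay below shLuc replicates 1 to 3 and above shLuc replicate 4. The log2 fold change was -0.50 in shDis3 against shLuc (SE 0.35, -1.26 to 0.25) and -0.01 in shExosc10 against shLuc (SE 0.35). Without shLuc replicate 4 the former was -0.77 with an adjusted p of 0.310, and with the cluster of like libraries as a term it was 0.18. An unclassified gene model, Gm37527, lies within the span of Kel on the same strand (mean 2.98 TPM). Whether their exons overlap, so that they could share reads, was not checked.

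Aqp1 (ENSMUSG00000004655.5, chromosome 6, 55336432 to 55348555, plus strand) was highest in shExosc10 replicates 2 to 4. It measured 27.98, 46.2, 32.1 and 10.8 CPM in the shLuc libraries, 34.1, 31.2, 16.9 and 9.14 in the shDis3 ones, and 19.1, 123.0, 127.3 and 57.9 in the shExosc10 ones. Those 3 shExosc10 libraries exceeded every library of the other groups, whereas shExosc10 replicate 1 lay below 3 of the 4 shLuc libraries. The log2 fold change was 1.48 in shExosc10 against shLuc (SE 0.56, 0.30 to 2.67, unadjusted p = 0.0179) and -1.85 in shDis3 against shExosc10 (SE 0.56, unadjusted p = 0.00525, adjusted p = 0.666). It was -0.36 in shDis3 against shLuc (SE 0.55).

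The call for Aqp1 depended on the libraries and genes that entered the fit. With no filter on low counts, its log2 fold change in shExosc10 against shLuc was 1.499 (SE 0.27) at an adjusted p of 0.000853. In shDis3 against shExosc10 it was -1.87 (SE 0.28) at an adjusted p of 2.9e-07. The fold changes hardly moved from the filtered fit, where both SE were 0.56. The SE of Slc4a1 in shDis3 against shLuc likewise fell from 0.93 to 0.32. These adjusted p thus depend on how a fit estimated the spread, besides the scatter of Aqp1 itself. A further fit left out the 4 libraries of the closest pairs across groups (shLuc replicate 4, shDis3 replicates 3 and 4 and shExosc10 replicate 1). They were picked from these data and held the lowest Aqp1 values of their groups. Other libraries with their nearest profile in another group were kept. The log2 fold change was then 1.53 in shExosc10 against shLuc (adjusted p = 0.0137). It was -1.67 in shDis3 against shExosc10 (adjusted p = 0.00277), with 2 shDis3 libraries left. Aqp1 was then the only member called in either comparison. Over all genes the fit with no filter called 0.0242% in shExosc10 against shLuc and 0.433% in shDis3 against shExosc10, and the fit without the 4 libraries 0.0323% and 2.15%. In the fits that left out 1 library, the log2 fold change in shExosc10 against shLuc ran from 1.203 to 1.83 with an adjusted p of at least 0.998. In shDis3 against shExosc10 it ran from -2.19 to -1.56 with an adjusted p of at least 0.161. DESeq2 over all 12 libraries gave Aqp1 an adjusted p of 0.632 in shExosc10 against shLuc and 0.0718 in shDis3 against shExosc10. Aqp1 is also made by endothelium, and of its markers Pecam1 lay between 2.11 and 32.01 CPM, Tek between 0.57 and 6.26, Kdr between 1.16 and 3.59 and Cdh5 at no more than 0.42. Of 7 endothelial and stromal markers 4 passed the filter, and their sum was 15.1 to 54.3 CPM for shLuc, 30.2 to 47.2 for shDis3 and 15.2 to 39.9 for shExosc10. Their part in the level of Aqp1 was not tested.

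**Figure D2:**
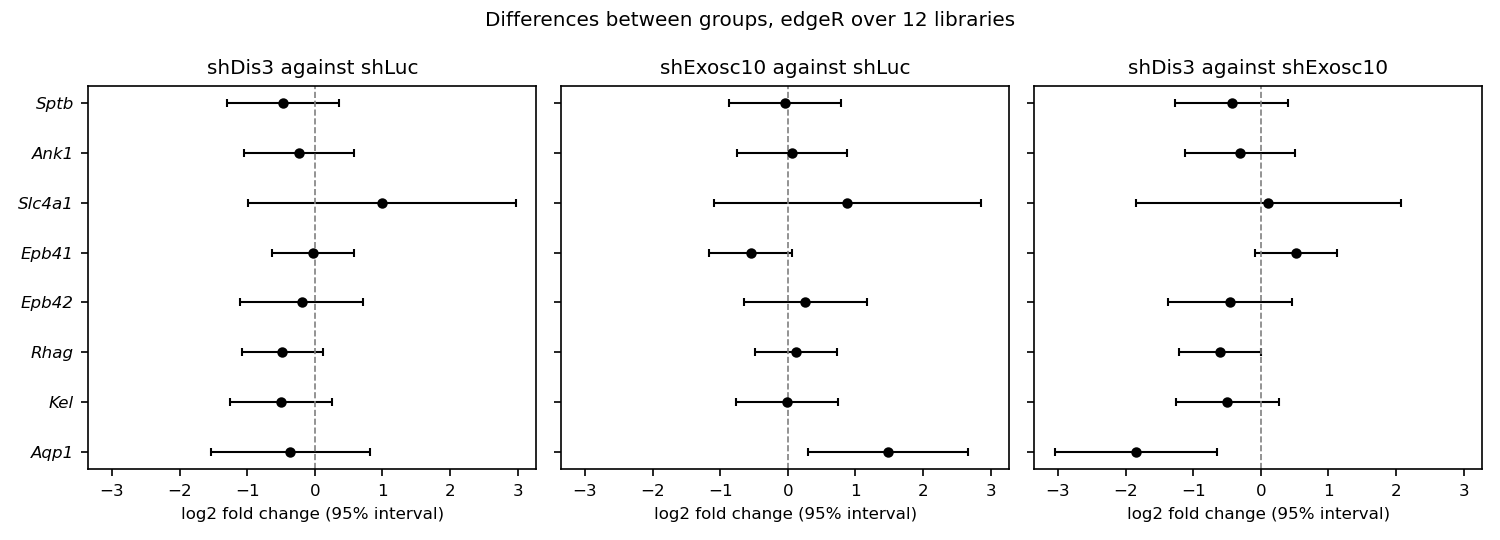
Log2 fold change of each gene (point) with its 95% interval (bar) in the 3 comparisons, from edgeR over all 12 libraries. Of the 24 intervals, those of Aqp1 in both comparisons with shExosc10 and that of Rhag in shDis3 against shExosc10 leave out 0, before any adjustment.

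Levels between genes were compared per transcript length, as TPM. In shLuc the order was Rhag at 77.8 ± 17.5 TPM (SD, n = 4), Epb41 at 76.4 ± 30.5, Sptb at 73.4 ± 20.5, Ank1 at 43.9 ± 9.06, Kel at 24.7 ± 8.55, Aqp1 at 9.20 ± 5.61, Slc4a1 at 6.03 ± 7.35 and Epb42 at 4.50 ± 2.30. The ranges of each pair of neighbours overlapped, so that Rhag, Epb41 and Sptb cannot be ordered. Within each library, however, Sptb exceeded Ank1, Ank1 exceeded Kel and Kel exceeded Aqp1 in 4 of 4 shLuc libraries. In shDis3 Epb41 came first at 96.2 ± 45.1 TPM, above Rhag (69.2 ± 22.3) in 4 of 4 libraries. In shExosc10 Rhag came first at 91.6 ± 27.4 TPM and Epb41 stood at 60.5 ± 18.0, and Aqp1 reached 26.9 ± 17.2, beside Kel at 26.7 ± 12.3. These orders were not tested between groups.

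Partners in the same complex kept their proportions to different degrees. The TPM of Sptb was 1.43 to 1.87 times that of Ank1 in all 12 libraries, although each of the genes varied more than 4-fold over them (ratios of highest to lowest TPM of 4.32 and 4.96). Between Ank1 and its membrane anchor Slc4a1 the ratio ran from 1.66 in shDis3 replicate 2 to 56.9 in shLuc replicate 1. Kel was 1.03 to 2.34 times its partner Xk, and Rhag was 1.71 to 7.34 times Rhd, the Rh blood group protein.

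**Figure D3:**
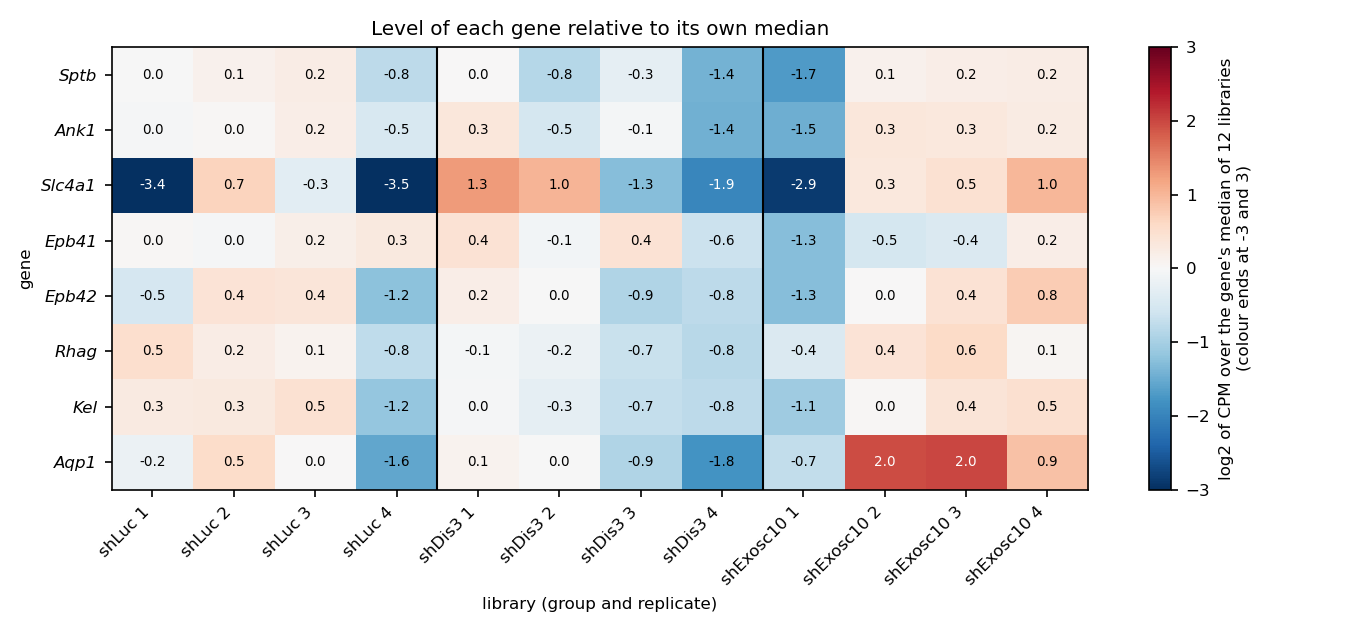
Log2 of each gene's CPM over that gene's own median of the 12 libraries, with genes as rows and libraries as columns; red is above and blue below the median, and lines separate the groups. The columns of shLuc replicate 4, shDis3 replicates 3 and 4 and shExosc10 replicate 1 are blue for most genes, with Epb41 as an exception in the first 2.

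Low levels of several members came together in the same libraries, one or more in each group. In shDis3 replicate 4 and in shExosc10 replicate 1, 6 of 8 members were among the 3 lowest of their 12 values. In shLuc replicate 4 this held for 5 members and in shDis3 replicate 3 for 3, and in no other library for more than 2. At the other end, shExosc10 replicate 3 held 6 and shExosc10 replicate 4 held 5 members among the 3 highest. The share of all genes at such ranks was not worked out for each library. These counts are therefore not shown to be particular to the members. Summed markers of several cell types, though not of all, moved with the low levels of the members. The 10 erythroid markers had their lowest sums in these 4 libraries. The sums were 909.1 CPM in shLuc replicate 4, 1216 and 1607 in shDis3 replicates 3 and 4 and 1649 in shExosc10 replicate 1. In the other 8 they were 2098 to 3366 CPM. Not every marker followed its sum. Gata1 measured 99.1, 101.1, 117.3 and 106.5 CPM in the 4 libraries and was lowest in shDis3 replicate 2 (81.9 CPM). Klf1 was also lowest in shDis3 replicate 2 (85.0 CPM). Endothelial and stromal markers had their highest sums in the 4 libraries, at 39.9 to 54.3 CPM against 15.1 to 33.9. Mast cell and basophil markers summed to 118.6, 68.9, 91.1 and 115.9 CPM in the same order, and to 8.26 to 22.1 in the other 8. Of these 6 markers 5 passed the filter. Cpa3, a mast cell carboxypeptidase, ran from 3.28 to 73.1 CPM, Mcpt8 was at most 1.63 CPM, and Fcer1a was at 0 in every library. Megakaryocyte markers (10 of 10 passed) summed to 309.0 to 406.1 CPM in the 4 libraries, to 350.8 and 301.2 in shDis3 replicates 1 and 2, and to 75.4 to 154.1 in the remaining 6. Granulocyte markers summed to 1049 to 4221 CPM for shLuc, 2079 to 4803 for shDis3 and 1294 to 2038 for shExosc10. In the 4 libraries they were 4221, 3241, 2079 and 2038 CPM, within the 1049 to 4803 of the other 8. Stem and progenitor markers summed to 1298, 1105, 941.4 and 1016 CPM in the 4 libraries and to 675.4 to 1018 in the other 8. The sum over olfactory receptor genes was 6.85 to 16.7 CPM in those 4 libraries and 32.1 to 593.2 CPM in the other 8. The part of these markers in the members' levels was not tested.

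Within the pairs of like libraries the members were compared directly, 1 library against 1, with no replicate. All 8 were higher in shDis3 replicate 3 than in shLuc replicate 4, where 45.2% of all genes were. The log2 ratio was 2.16 for Slc4a1 (20.6 and 4.59 CPM), 0.64 for Aqp1, 0.52 for Sptb, 0.46 for Kel and 0.41 for Ank1, and 0.10 to 0.33 for the other 3. In shDis3 replicate 4 over shExosc10 replicate 1, 6 of 8 were higher, where 46.7% of all genes were. There Slc4a1 had a log2 ratio of 0.93, Epb41 of 0.62 and Epb42 of 0.50, while Rhag (-0.40) and Aqp1 (-1.06) were lower. Slc4a1 was thus higher in the shDis3 library of both pairs, whereas Aqp1 differed in direction between them.

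**Figure D4:**
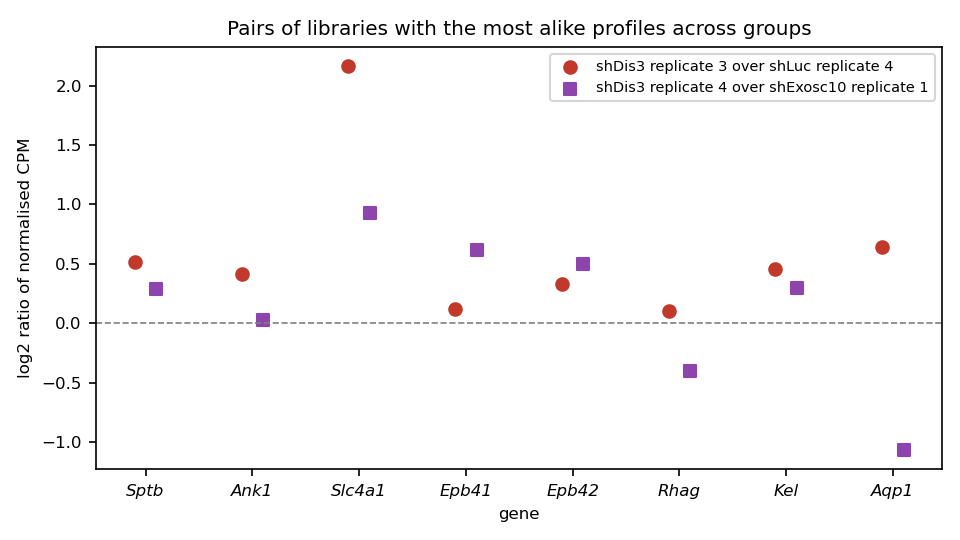
Log2 ratio of normalised CPM for each gene within the pairs of libraries from different groups whose profiles were most alike, 1 library over 1. All 8 circles (shDis3 replicate 3 over shLuc replicate 4) and 6 of 8 squares (shDis3 replicate 4 over shExosc10 replicate 1) lie above 0.

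Another 35 genes of the red cell membrane, with actin-end proteins, blood group proteins and transporters, all passed the filter, and 0 were called in each comparison. In shDis3 against shLuc 26 of 35 were negative, and their median was -0.20 as a log2 fold change. In shExosc10 against shLuc 19 were positive (median 0.05), and in shDis3 against shExosc10 28 were negative (median -0.22). Of all genes tested 52.6%, 52.2% and 51.2% were positive in the same order. The 35 genes were measured in the same libraries, so their signs are not independent. The most abundant in shLuc were Bsg, an immunoglobulin-family partner of lactate transporters (323.8 ± 85.5 TPM), Tpm3 (299.6 ± 192.8) and Tpm1 (120.2 ± 33.5), which are tropomyosins of the actin filaments, Cd47, the "do not eat me" signal (98.7 ± 29.7), and the adducin Add2 (82.8 ± 17.7). Their log2 fold changes in shDis3 against shLuc were -0.31 (SE 0.21), 0.10 (SE 0.22), -0.18 (SE 0.18), -0.06 (SE 0.16) and -0.35 (SE 0.24). At an unadjusted p under 0.05, 1 of 35 passed in shExosc10 against shLuc, beside 2.1% of all genes. In shDis3 against shExosc10 6 of 35 passed, beside 5.98%. In shDis3 against shLuc 5 of 35 passed, beside 4.07% of all genes. Among them were Art4 (0.86, SE 0.27), which carries the Dombrock blood group, Aqp3, a water and glycerol channel (-1.25, SE 0.46), the urea transporter Slc14a1 (-0.56, SE 0.25) and the calcium pump Atp2b1 (-0.51, SE 0.21), each at an adjusted p of 0.99985 and named here after their values were seen.

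Without the 4 libraries named above, 3 of these 35 genes were called in shDis3 against shLuc, where 3.34% of all genes were, among them Rhd (-0.98, adjusted p = 0.0311) and Aqp3 (-1.44, adjusted p = 0.0396). In that fit 3 were called in shDis3 against shExosc10, where 2.15% of all genes were, among them Rhd (-1.10, adjusted p = 0.0192). These names were likewise picked after their values were seen. Of 8 erythroid regulators (Gata1, Klf1, Tal1, Nfe2, Zfpm1, Lmo2, Ldb1 and Epor), which include activators of these membrane genes, 0 were called in any comparison. Klf1 differed by -0.35 in shDis3 against shLuc (SE 0.21) and Gata1 by -0.03 (SE 0.17).

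Relatives that serve other tissues were measured alongside. Of 16 such genes 14 passed the filter, and 0 were called in any comparison. The general beta spectrin Sptbn1 measured 19.9 ± 22.9 TPM in shLuc, and Sptb exceeded it by 1.10 to 11.6 times over the 12 libraries. Epb41l2 was at 13.3 ± 8.50 TPM in shLuc, Ank3 at 1.52 ± 1.29, Aqp11 at 4.98 ± 1.18 and Rhcg at 0.26 ± 0.49. For the anion exchangers the erythroid gene did not dominate: Slc4a2, the widely expressed exchanger, stood at 8.59 ± 1.69 TPM in shLuc beside 6.03 ± 7.35 for Slc4a1. Slc4a1 exceeded Slc4a2 in 6 of 12 libraries, with ratios from 0.075 in shLuc replicate 1 to 2.79 in shDis3 replicate 2.

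The deposited tables also gave each gene's mean transcript length, weighted by the estimated abundance of its transcripts. Different mixtures of annotated forms can give the same mean, so it does not show which forms the reads were assigned to. For Ank1, whose 13 annotated coding transcripts run from 328 bases to 8218 bases, it was 5664 to 6557 bases. These means lie among the lengths of the longer annotated forms. For Epb42 it ran from 1913 bases in shLuc replicate 1 to 3540 in shLuc replicate 4, between the shorter coding transcript of 2695 bases and the longer of 4115 in 8 libraries and below both in 4. Epb41, with 14 coding transcripts of 2375 to 8302 bases, had means of 3015 ± 206.9 bases for shLuc, 2783 ± 168.3 for shDis3 and 2549 ± 350.0 for shExosc10 (SD, n = 4).

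No member's length differed between groups by limma at an adjusted p under 0.05, where 0% of 9644 genes did in each comparison. Epb41 in shExosc10 against shLuc had the smallest unadjusted p of the members, with a log2 difference of -0.25 (SE 0.09, unadjusted p = 0.0226, adjusted p = 1). Sptb stayed between 8390 and 8632 bases, near its coding transcript of 8084 bases and below that of 10394. Rhag (2216 to 2334 bases) lay just under its longest coding transcript of 2339 bases. Kel (2126 to 2470) lay below its longest of 2530 bases and above its other annotated transcripts, of 322 to 858 bases. Slc4a1 stood at the full 4545 bases in 9 of 12 libraries and no lower than 4234. Aqp1 has 1 annotated transcript of 2627 bases and could not be fitted.

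**Figure D5:**
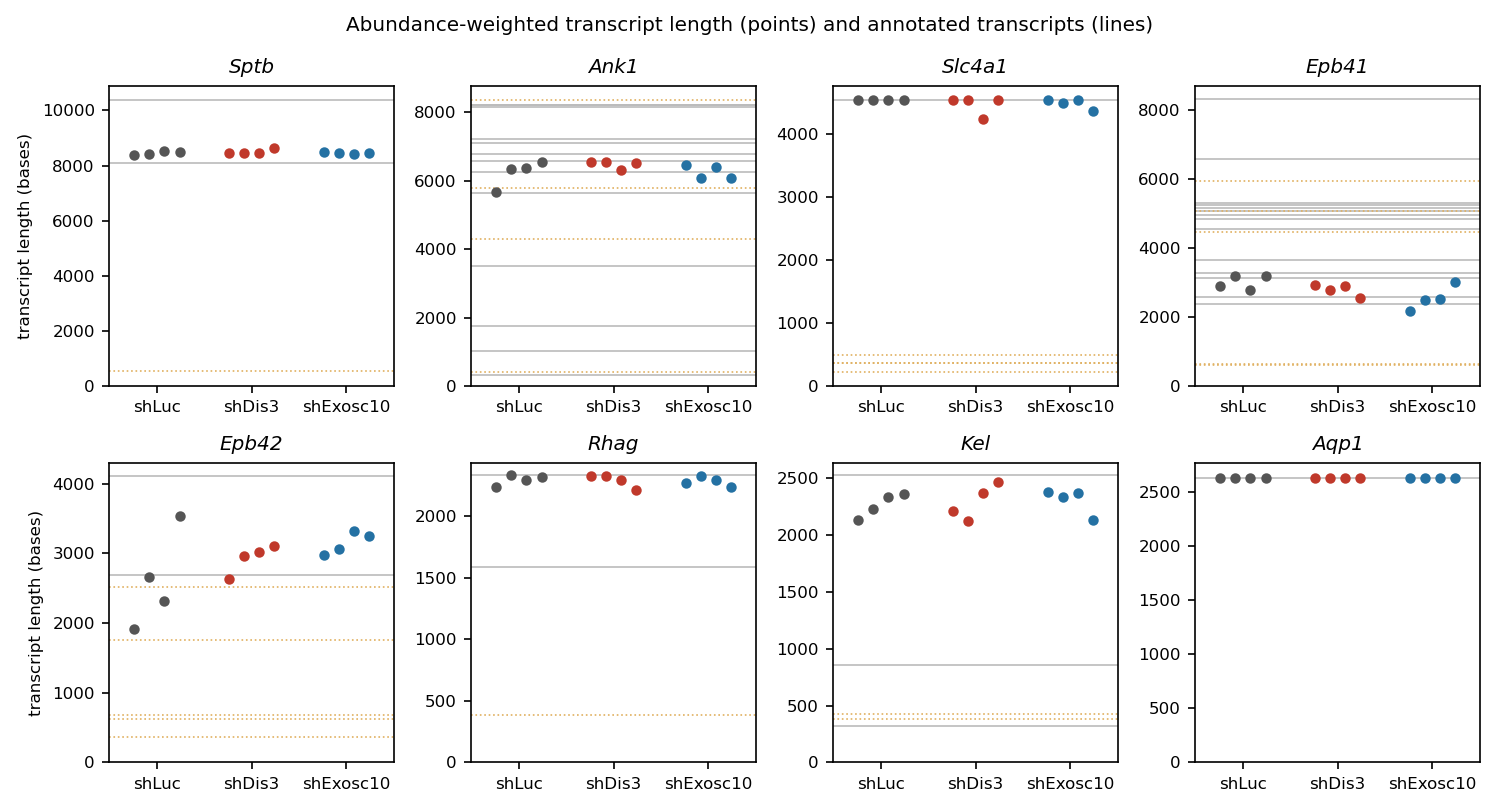
Abundance-weighted transcript length in bases (points, 1 per library, replicates 1 to 4 from left to right in each group) with the lengths of annotated coding (solid lines) and other transcripts (dotted lines). Ank1 points lie among the long forms, and Epb42 and Epb41 points spread most.

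Genes with the most similar pattern were ranked by Pearson r, over the 12 libraries, between their log2 CPM and the mean of the members' standardised log2 CPM, among 13923 protein-coding genes. The first 8 were Cacna1c, a calcium channel subunit (r = 0.980), Grina (0.979), the formin Fhdc1 (0.979), Adamtsl5 (0.971), Atg9b (0.971), the guanine nucleotide exchange factor Arhgef12 (0.969), the receptor phosphatase Ptpru (0.965) and the metallopeptidase Adam33 (0.964). These values describe a ranking over libraries that fall into groups of like profiles, so they carry no p. Arhgef12 was the most abundant of them, with means of 73.0 ± 23.7 CPM for shLuc, 51.7 ± 21.7 for shDis3 and 77.6 ± 37.9 for shExosc10 (SD, n = 4). Fhdc1 measured 32.8 ± 20.2, 19.1 ± 15.1 and 48.8 ± 31.5 CPM in the same order.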

How the data were processed

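Per the labels' protocols, Trizol-extracted RNA was made into strand-specific libraries with a low-input kit. The submitters' processing notes name STAR 2.5.3a and RSEM 1.3.0 with mm10 (GRCm38). The sources used here give no annotation release, strand setting or filter, so counts of overlapping genes are uncertain. Per the file headers, the authors deposited RSEM expected counts, TPM and an abundance-weighted transcript length in bases (a value other than expression). Of the counts, 4.55% were not whole, and they were rounded here. GENCODE M21 gave symbols and coordinates: 54487 of 55385 IDs matched with their version, 55144 without.

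All 12 libraries were fitted with edgeR 4.0.16 (R 4.3.3): TMM, default filter by group (17650 genes left), quasi-likelihood test on group alone, Benjamini-Hochberg over all genes, threshold 0.05. CPM use TMM-scaled library sizes, log2 CPM a prior count of 2. TPM were used to compare genes, CPM to compare libraries. Log2 transcript lengths were fitted with limma 3.58.1 for genes with a mean count of at least 50. Fits were tested on simulated data. The closest libraries differed by a chi-square of 13.1 per degree of freedom, so none was deposited more than once. Alternatives were DESeq2 1.42.0, RLE factors, no filter, each library left out, a replicate block, the cluster of like libraries as a term (3 clusters by average linkage on log2 CPM, 1 of them shLuc replicate 1 alone), 4 libraries left out, and limma on log2(TPM + 1) or log2(TPM + 0.1). The named genes were the members, the 5 most abundant and any called of the other red cell list, the most abundant relative of each member, and the 8 most alike in pattern. Some named genes are not reported here. Members and lists were chosen with earlier results of these data known. Intervals cover 95%.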

Additional observations from a re-analysis of the deposited data

Results flagged for a closer look

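Among the 24 sets of 4 libraries (8 genes in 3 groups), 3 had a library whose gap to its neighbour exceeded Dixon's limit of 0.829 of the group's range, a limit that chance passes in about 1 of 20 sets. Sptb in shExosc10 replicate 1 stood at 8.01 log2 CPM, where the other 3 lay between 9.84 and 9.95. Ank1 in the same library stood at 7.02, with the others between 8.73 and 8.82. The 24 sets share libraries and are not independent, and Sptb and Ank1 correlated at r = 0.974 over the 12 libraries. Kel in shLuc replicate 4 stood at 4.87, with the others between 6.30 and 6.49. Both libraries are among the 4 of the closest pairs across groups.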

How the results depend on the processing

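Over all genes, edgeR called 0 in shDis3 against shLuc, 1 in shExosc10 against shLuc and 2 in shDis3 against shExosc10. In the same order DESeq2 called 33, 8 and 72, and the fit with no filter 123, 10 and 179. The fit without the 4 libraries of the closest pairs across groups called 724, 7 and 466. RLE factors and the cluster term each called 1 in the first comparison, and limma on either TPM scale 0 in the second and 0 in the third. Leaving out 1 library gave 0 to 146, 0 to 2 and 1 to 2, with 146 without shLuc replicate 4. In the second comparison 2 were called without shLuc replicate 4 and 0 without shExosc10 replicate 2 or 3, and in the third 1 without shDis3 replicate 1 or 3 or shExosc10 replicate 3. Of the members, 1 (Aqp1) was called with no filter and 1 without the 4 libraries, each time in both comparisons with shExosc10. Of the other 35 red cell genes, 2, 1 and 3 were called with no filter, and 3 in the first and 3 in the third comparison without the 4 libraries. Leaving out 1 library called 0 members, 0 other red cell genes and 0 member lengths throughout.

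Whether the replicate numbers pair the libraries could not be settled, since the closest pairs across groups had unlike numbers and could mask a pairing. Deviations of same-numbered libraries correlated from -0.47 to 0.77, and 4 of 12 correlated best with their own number. The correlations were all positive for numbers 1 (0.10 to 0.23) and 2 (0.37 to 0.77) and of mixed sign for numbers 3 and 4. With the replicate block 1 gene was called in shDis3 against shExosc10, and Sptb (0.0057) and Kel (0.049) in shExosc10 against shLuc and Slc4a1 (-0.045) in shDis3 against shExosc10 changed sign.

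DESeq2 and RLE factors kept the direction of all 24 member values. The cluster term removes shLuc replicate 1, alone in its cluster, from the comparisons. With it, signs changed in shDis3 against shLuc for Sptb (0.036), Ank1 (0.12), Epb41 (0.016), Epb42 (0.40), Rhag (0.028), Kel (0.18) and Aqp1 (0.55). They also did in shExosc10 against shLuc for Ank1 (-0.050) and Kel (0.0088), and in shDis3 against shExosc10 for Sptb (0.18), Ank1 (0.17), Epb42 (0.34) and Kel (0.17). Without the 4 libraries Epb41 (0.12) in shDis3 against shLuc and Sptb (0.058) in shExosc10 against shLuc changed sign. With limma on log2(TPM + 1) and log2(TPM + 0.1), Epb41 in the former was 0.27 and 0.27. In the latter Ank1 was -0.023 and -0.029, Epb42 -0.038 and -0.057, and Kel 0.028 and 0.024. With 1 library left out, sign changes came with ranges in shDis3 against shLuc of -0.52 to 0.0031 for Ank1, -0.16 to 0.16 for Epb41 and -0.44 to 0.026 for Epb42. In shExosc10 against shLuc the ranges were -0.23 to 0.26 for Sptb, -0.065 to 0.36 for Ank1, -0.0015 to 0.54 for Epb42, -0.086 to 0.30 for Rhag and -0.28 to 0.24 for Kel, and in shDis3 against shExosc10 -0.43 to 0.47 for Slc4a1. The median of all genes in shDis3 against shLuc was 0.02 with edgeR, 0.11 with limma on log2(TPM + 1), 0.17 on log2(TPM + 0.1) and 0.11 without the 4 libraries. The cause was not tested. None of the values that changed sign passed the threshold.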

Other observations

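The water channels Aqp1 and Aqp3, a pair picked after their values were seen, stood in opposite order in the control and the shExosc10 libraries. Per transcript length, Aqp1 was 0.300 to 0.639 times Aqp3 in shLuc, 0.464 to 1.34 times in shDis3 and 1.05 to 8.54 times in shExosc10. Aqp3 itself had means of 21.3 ± 7.24 TPM for shLuc, 12.005 ± 6.27 for shDis3 and 8.73 ± 6.94 for shExosc10 (SD, n = 4). Its log2 fold change in shExosc10 against shLuc was -1.47 (SE 0.47, edgeR adjusted p = 0.999995), beside 1.48 (SE 0.56) for Aqp1. No test was made of the ratio.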
